A study of Mus musculus with 4 samples.

Results

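The genes described here encode factors that start and lengthen proteins on the ribosome, with kinases, methyltransferases and binding proteins named after them. They were chosen by name, with earlier results of these data known. The rule took every gene whose symbol begins with Eif followed by a digit from 1 to 6, or with Eef, apart from the Y-linked *Eif2s3y*. The platform annotation gave 58 such genes of the 18193 measured. Each was read from the brightest of the probe sets named for it alone, a probe set being the group of short probes that reports 1 transcript on an Affymetrix array. RNA came from follicular helper CD4 T (TFH) cells, the T cells that enter B cell follicles and help antibody responses, sorted from mouse spleen at day 8 after infection with the Armstrong strain of lymphocytic choriomeningitis virus (LCMV). *Rictor* encodes the defining subunit of mTOR complex 2 (mTORC2), and the study compared TFH cells without it, called *Rictor-/-* here (Rictor-null in the labels), with WT TFH cells. *Rictor-/-* mice carried 2 floxed *Rictor* alleles and a *Cd4*-Cre transgene, which is active in all T cells that have expressed CD4 during development and so also deletes in the CD8 lineage. WT mice were their littermates with the floxed alleles and no Cre. By the study's methods its mice were young adults of both sexes, and the sample titles name no sex for these pools. There were 2 arrays per genotype, each from RNA pooled from at least 5 mice by the series description, although a figure legend of the study gives other numbers of mice.

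Translation in the cytoplasm begins when eIF2 brings the initiator tRNA to the small ribosomal subunit, eIF3 holds that subunit ready, and the eIF4 proteins recruit it to the capped end of an mRNA. The complex then scans for a start codon with the help of eIF1 and eIF1A, after which eEF1A delivers each further tRNA and eEF2 moves the ribosome along. Kinases set the rate: mTOR complex 1 acts on the eIF4E-binding proteins, and stress kinases phosphorylate the alpha subunit of eIF2.

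*Rictor* itself, the targeted gene, read 267 and 279 on the *Rictor-/-* arrays and 334 and 303 on the WT arrays, with a log2 difference of -0.21 (SE 0.06, limma adjusted p = 0.0366). The other 4 probe sets of the gene differed by -0.03 to 0.11, and no source used here says whether any of the 5 lies in the deleted exons, so this is a weak check of the labels. By the study's own measurements, day 8 TFH cells of *Rictor-/-* mice had no detectable *Rictor* mRNA. Stimulated CD4 T cells of such mice did not induce mTORC2 activity. Of 6 T cell and TFH markers all were above the median of the arrays, and 5 were lower in *Rictor-/-* cells, among them *Bcl6* with a mean intensity of 220 against 437 in WT. Every list of markers of other cells held a call higher, and only the plasma cell list held a call lower. The summed level of 8 myeloid markers was 291 to 323 on the *Rictor-/-* arrays and 196 to 210 on the WT arrays. Of these 4 were called higher, and log2 differences ran from 0.04 to 0.77. The 5 plasma cell markers summed to 1325 to 1385 against 1138 to 1209, with 2 called higher (*Jchain* and *Mzb1*) and 1 lower (*Xbp1*). Most of that sum is *Xbp1*, with a mean intensity of 865 against 984 in WT. *Jchain* had 366 against 120, and *Mzb1* had 96.2 against 44.9. The 7 B cell markers summed to 89.7 to 95.9 against 74.2 to 77.2, with 2 called higher and 6 below the array median in both genotypes. The 3 CD8 and NK markers summed to 158 to 173 against 119 to 126, with 1 called higher, *Cd8b1* with a mean intensity of 131 against 86.2, while *Cd8a* had 24.5 against 24.4 and *Ncr1* 10.1 against 11.7. The 2 erythroid markers, both below the median, summed to 22.4 to 23.5 against 18.3 to 18.7, with 1 called higher. Proliferation genes were higher as well, 8 of 11 by the test and none lower, with a summed level of 8552 to 8592 against 6634 to 6678. The part of any of these in the differences below was not tested, and in bulk RNA fewer cells of a type and less RNA per cell cannot be told apart.

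Translation factor genes moved in both directions in *Rictor-/-* TFH cells. By limma, 18 of the 58 were higher (31%) and 8 were lower (13.8%), and 32 did not pass the test. Over all genes, 12.5% were called higher and 7.19% lower, or 19.7% in either direction. These genes are bright, however, and among the genes with a mean intensity of at least 100 the shares were 25.3% higher and 16.8% lower, 42.1% in all. The 49 translation factor genes at that brightness had 17 higher (34.7%) and 8 lower (16.3%), 51% in all, which is near that background. Groups did not overlap for 36 of the 58 (62.1%), against 55.5% of all genes. The counts of role groups and other lists below have these same shares as their background.

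Differences were small. The median log2 difference over the 58 was 0.02, beside 0.01 for all genes, with a lowest value of -0.38 and a highest of 0.60. Here and below, differences are of log2(intensity + 16), and a positive value means higher in *Rictor-/-* cells. The summed intensity of the 58 genes was 77759 to 77875 on the *Rictor-/-* arrays and 77682 to 78511 on the WT arrays, ranges that overlap. Only 10 of the 26 calls (7 higher, 3 lower) held whichever of the 4 arrays was left out, with adjusted p of at most 0.0413. These were the rises of *Eif1a*, *Eif1ax*, *Eif2s2*, *Eif3m*, *Eef1e1*, *Eef1akmt1* and *Eef1akmt2* and the falls of *Eif3f*, *Eif4g3* and *Eif4h*. Without WT array 1 the counts were 8 higher and 3 lower, and without WT array 2 they were 7 and 6. Each fit without 1 array also called fewer of all genes than the fit with all arrays. When every probe set of a gene was averaged, in place of taking the brightest, 11 of the 58 were higher and 5 lower. Over all genes that setting called 2639, beside 3591 with the brightest probe sets. It lost the calls of *Eef1d*, *Eef2*, *Eif2a*, *Eif2d*, *Eif3e*, *Eif3i*, *Eif3l*, *Eif4ebp2*, *Eif4g2* and *Eif5a2*.

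**Figure D1:**
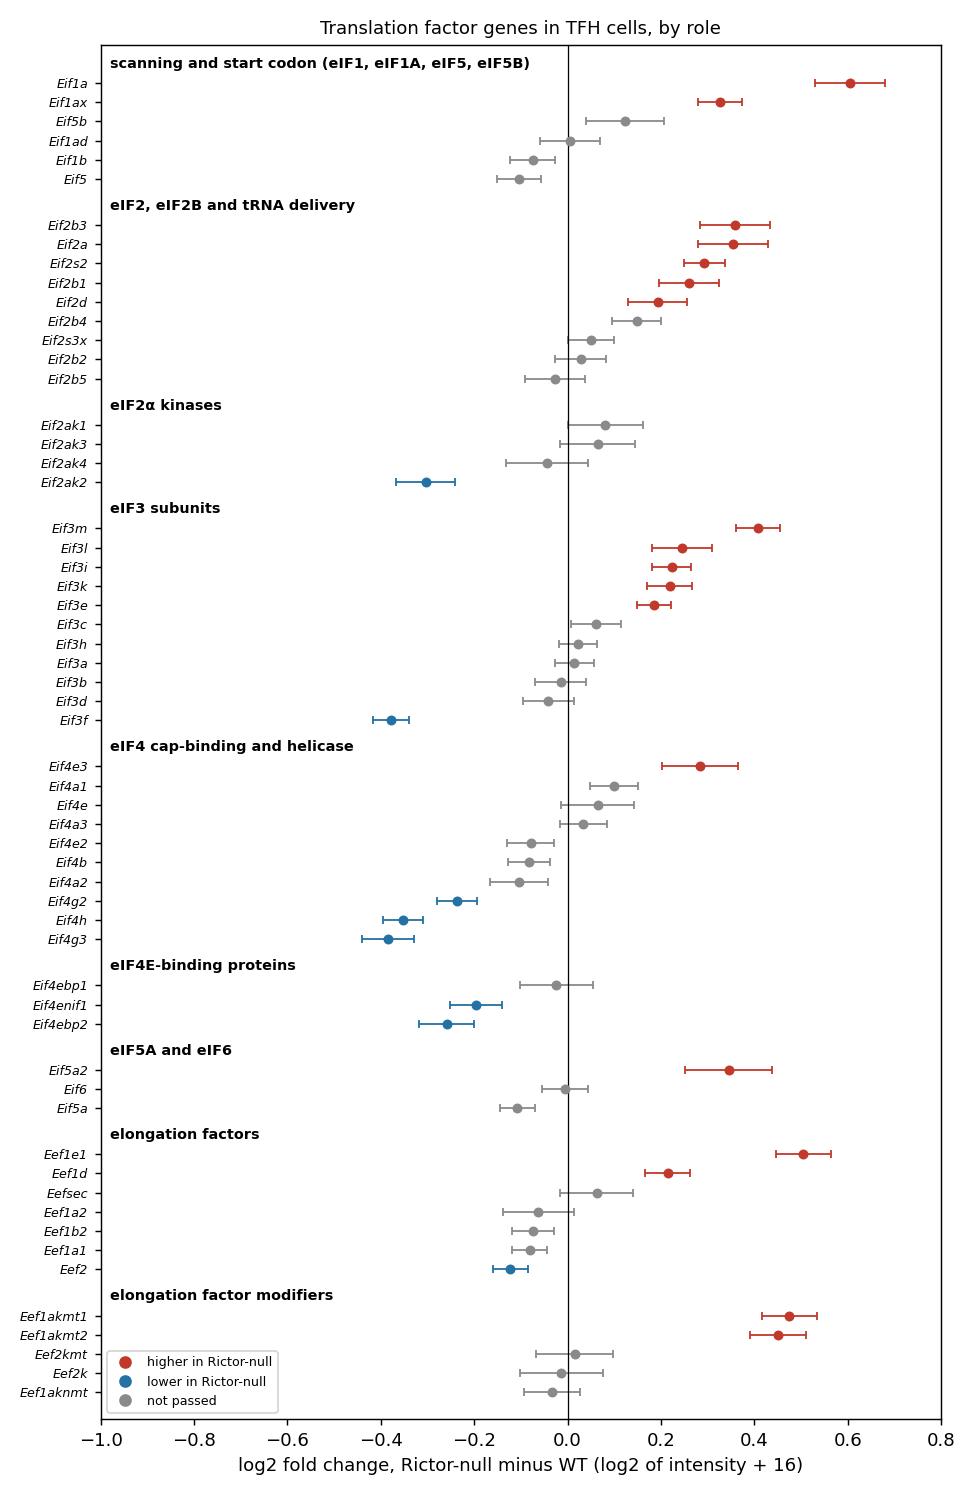
Log2 difference (*Rictor-/-* minus WT, log2(intensity + 16), horizontal axis) of each of the 58 genes, grouped by role, with bars for the standard error of limma's fit on either side. Calls to the right of 0 number 18 and calls to the left number 8. The groups of eIF2 and eIF2B, of scanning, of eIF5A and eIF6 and of elongation factor modifiers hold no call to the left.

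**Figure D2:**
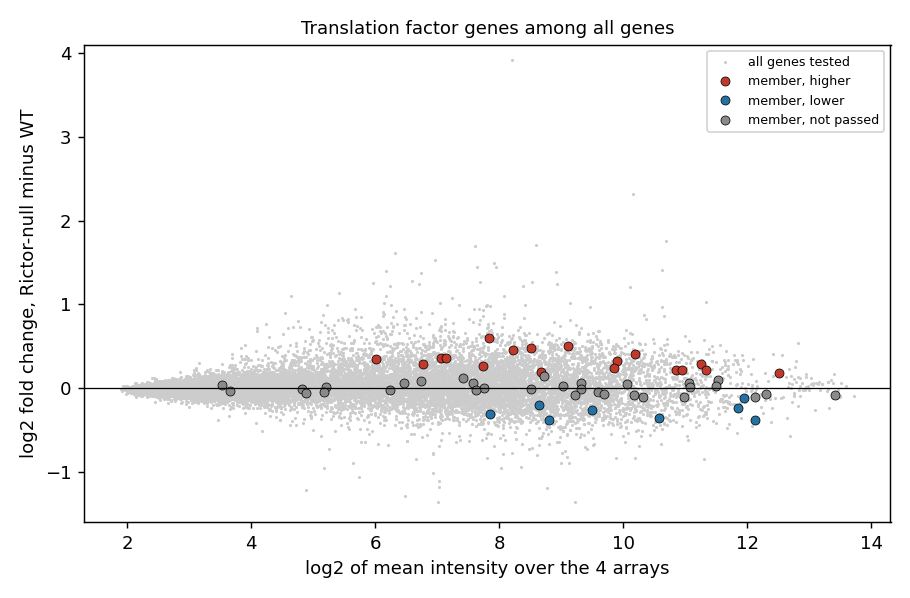
Log2 difference against mean brightness for the 18193 genes, with the 58 translation factor genes drawn over the rest. They lie mostly at the bright end, and all fall between -0.38 and 0.60.

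Both genes for eIF1A, the small protein that keeps the scanning complex open until a start codon is found, were higher without *Rictor*. *Eif1a* read 292 and 267 on the *Rictor-/-* arrays and 191 and 166 on the WT arrays. The genotypes were well apart, with means of 279 ± 17.3 and 179 ± 17.5 (SD, n = 2 each) and a log2 difference of 0.60 (SE 0.07, limma adjusted p = 0.000105), the highest of the 58. Its X-linked relative *Eif1ax* read 1061 and 1067 against 863 and 828, again without overlap, a difference of 0.33 (SE 0.05, adjusted p = 0.000307). The suffix of the *Eif1a* probe set marks probes that can match related transcripts, so that reading cannot be fully separated from that of *Eif1ax*. The second probe set of *Eif1a* differed by 0.45. None of the other 4 genes of this step passed: *Eif5b*, which joins the subunits, differed by 0.12, *Eif1ad* by 0.01, *Eif1b* by -0.07, and *Eif5*, which makes eIF2 hydrolyse its GTP, by -0.10 (adjusted p = 0.152). Values for *Eif1* were not analysed here.

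The eIF2 group had 5 of 9 genes higher and none lower, with a median difference of 0.19. *Eif2s2*, the beta subunit of eIF2, read 2699 and 2663 in *Rictor-/-* cells and 2255 and 2119 in WT cells. Both *Rictor-/-* arrays were above both WT arrays, a difference of 0.29 (SE 0.04, limma adjusted p = 0.000418). The X-linked gamma subunit *Eif2s3x* read 1101 and 1072 against 1015 and 1085, so that its groups overlapped, and its difference of 0.05 had a 95% interval of -0.06 to 0.16 (adjusted p = 0.576). The suffix of the probe set used marks probes that can match other transcripts. The 3 probe sets of *Eif2s3x* ran from 0.01 to 0.30. *Xist*, the X-inactivation RNA made in female cells, read 4940 and 5027 against 5943 and 5802, a difference of -0.24 (limma adjusted p = 0.000619). The Y-linked *Kdm5d* was below the array median on all 4 arrays. The alpha subunit gene *Eif2s1*, whose product the stress kinases phosphorylate, was not analysed here.

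eIF2B recharges eIF2 with GTP, and 2 of its 5 subunit genes passed. *Eif2b3*, the gamma subunit, read 160 and 146 against 120 and 112, with no overlap and a difference of 0.36 (SE 0.07, limma adjusted p = 0.00437). *Eif2b1*, the alpha subunit, read 233 and 234 against 199 and 185, a difference of 0.26 (adjusted p = 0.0117). *Eif2b4* differed by 0.15 with the groups apart but did not pass (adjusted p = 0.0684), and *Eif2b2* and *Eif2b5* differed by 0.03 and -0.03. Both calls were lost without WT array 1 (adjusted p = 0.0545 and 0.0617 for *Eif2b3* and *Eif2b1*) or WT array 2 (0.101 and 0.15).

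A pair of further genes here encode proteins that can bring tRNA to the ribosome without eIF2. *Eif2a*, which despite its symbol is not the alpha subunit of eIF2, read 151 and 171 against 123 and 121, a difference of 0.36 (SE 0.08, limma adjusted p = 0.00468). *Eif2d* read 462 and 411 against 373 and 385, a difference of 0.19 (adjusted p = 0.0491). Both were higher on every *Rictor-/-* array. The call for *Eif2a* was lost without WT array 1 (0.0822) or 2 (0.0963). That for *Eif2d* lay at the threshold and was lost without *Rictor-/-* array 1, WT array 1 or WT array 2, with an adjusted p as high as 0.349. It was also lost with a pseudocount of 1 (0.0501), median centring (0.0504), quantile normalization (0.0569), no trend in the spread (0.0975) and adjustment over all probe sets (0.0951).

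**Figure D3:**
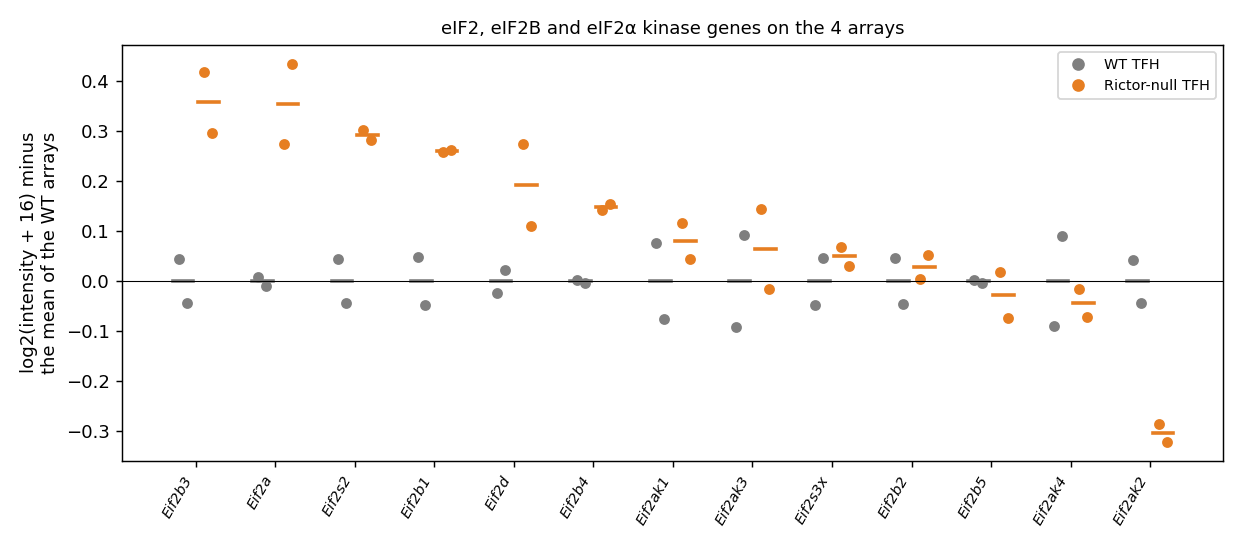
Each array's log2(intensity + 16) minus the mean of the WT arrays for the genes of eIF2, eIF2B and related tRNA delivery factors and the eIF2alpha kinases, with horizontal bars for group means. The 2 *Rictor-/-* arrays (orange) of *Eif2s2*, *Eif2b3* and *Eif2a* are above both WT arrays (grey), those of *Eif2ak2* are below, and those of *Eif2s3x* overlap.

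Of the 4 kinases that phosphorylate eIF2alpha, 1 was lower and the others did not pass. *Eif2ak2*, the double-stranded RNA sensor PKR and an interferon-induced gene, read 208 and 202 in *Rictor-/-* cells and 265 and 249 in WT cells. Neither *Rictor-/-* array reached a WT array, and the difference was -0.30 (SE 0.06, limma adjusted p = 0.00398), lost without WT array 1 (0.093). The heme-regulated kinase *Eif2ak1* read 114 and 107 against 110 and 97.4, and the endoplasmic reticulum kinase *Eif2ak3* (PERK) read 207 and 183 against 173 and 199. The amino acid sensor *Eif2ak4* (GCN2) read 36.4 and 34.4 against 33.8 and 40.4. All 3 overlapped, with differences of 0.08, 0.06 and -0.04, and the 4 probe sets of *Eif2ak1* at or above the array median ran from -0.26 to 0.19. Among 15 targets of this stress pathway 2 were higher and none lower, with a median of 0.06. *Asns*, which makes asparagine, differed by 0.53 (limma adjusted p = 0.00168) and *Ddit3*, the factor CHOP, by 0.24 (adjusted p = 0.0313). The mRNA of *Atf4*, the transcription factor between kinase and targets, differed by -0.03 (limma adjusted p = 0.71), and its protein was not measured.

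eIF3 showed the widest split within a complex. Of 11 subunit genes measured, 5 were higher, 1 was lower and 5 did not pass, around a median of 0.06. *Eif3m* read 1349 and 1310 on the *Rictor-/-* arrays and 1021 and 975 on the WT arrays. The groups were far apart, with means of 1329 ± 27.2 and 998 ± 32.4 (SD, n = 2 each) and a difference of 0.41 (SE 0.05, limma adjusted p = 6.26e-05). The suffix of this probe set marks probes that can match other transcripts, and the only other probe set of *Eif3m* was below the array median. *Eif3f* went the other way, with 3954 and 3858 against 5177 and 4989. Its means of 3906 ± 67.7 and 5083 ± 133 (SD, n = 2 each) gave a difference of -0.38 (SE 0.04, adjusted p = 3.27e-05), the smallest adjusted p of the 58. The products of *Eif3f* and *Eif3m* carry the MPN and PCI folds from which the core of eIF3 is built, as do those of *Eif3e*, *Eif3h*, *Eif3k*, *Eif3l*, *Eif3a* and *Eif3c*.

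The other 4 rises in eIF3 were smaller. *Eif3l* read 943 and 1078 against 885 and 812, and *Eif3k* read 2046 and 1922 against 1752 and 1654. *Eif3i*, one of the subunits outside the core, read 2835 and 2735 against 2410 and 2359, and *Eif3e* read 6207 and 6254 against 5513 and 5442. All 4 had both *Rictor-/-* arrays above both WT arrays, with differences of 0.25, 0.22, 0.22 and 0.19 and limma adjusted p of 0.0168, 0.00584, 0.00189 and 0.00277. A second bright probe set of *Eif3i* read 1987 and 1981 against 1974 and 1901, a difference of 0.03. Without WT array 2 none of the 4 passed (0.275, 0.142, 0.0696 and 0.0661), without WT array 1 *Eif3l*, *Eif3k* and *Eif3e* did not (0.0959, 0.0563 and 0.0507), and without *Rictor-/-* array 2 *Eif3l* did not (0.128). *Eif3l* also did not pass with no trend in the spread (0.0799). *Eif3c*, *Eif3h*, *Eif3a*, *Eif3b* and *Eif3d*, which include the large scaffold subunits, did not pass and lay between -0.04 and 0.06. Values for *Eif3g* were not analysed here, and *Eif3j1* and *Eif3j2* shared a probe set that names no single gene.

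**Figure D4:**
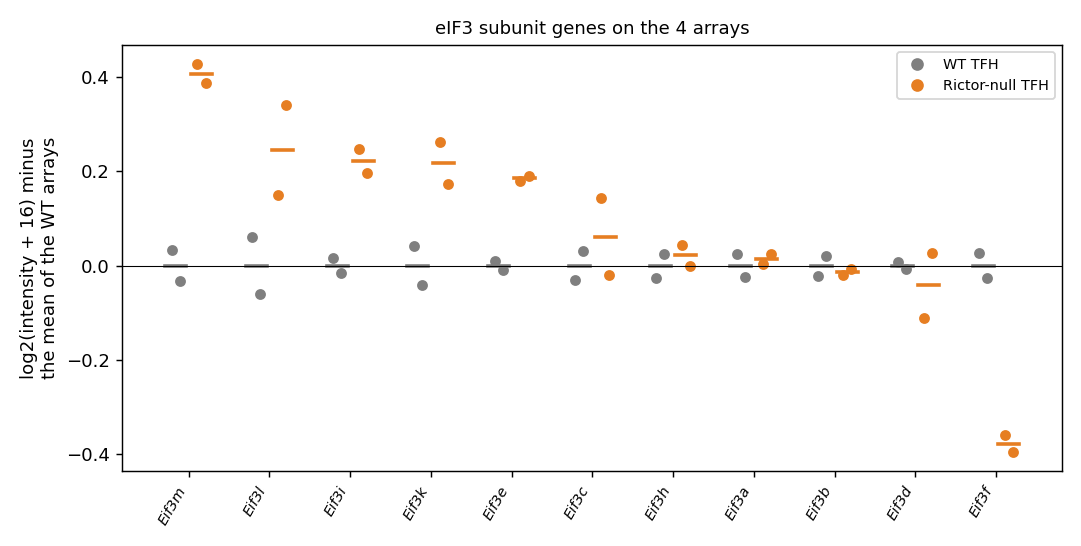
Each array's log2(intensity + 16) minus the mean of the WT arrays for the 11 eIF3 subunit genes, with horizontal bars for group means. *Eif3m* at 0.41 and *Eif3f* at -0.38 stand at opposite ends, and the 5 genes from *Eif3c* to *Eif3d* lie near 0.

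Start regions are shown for the 2 genes with the smallest adjusted p in each direction, since subunits of 1 complex moved apart. They are RefSeq windows of GRCm38.p6, read 5′ to 3′ on the gene's strand from 180 bases before the annotated start to 20 bases from it on. Capitals mark matches on either strand to the E-box CACGTG (bound by MYC and related factors), the ETS motif CCGGAAG or the CCAAT box CCAAT, and a run at the start itself of a C followed by at least 4 C or T, the form of the 5′ terminal oligopyrimidine tract that makes an mRNA respond to mTOR complex 1. *Eif3m* lies at chr2:105017008-105017207 on the minus strand and *Eef1e1* at chr13:38659009-38659208 on the minus strand. *Eif3f* lies at chr7:108934235-108934434 on the plus strand and *Eif4h* at chr5:134639390-134639589 on the minus strand.
Eif3m: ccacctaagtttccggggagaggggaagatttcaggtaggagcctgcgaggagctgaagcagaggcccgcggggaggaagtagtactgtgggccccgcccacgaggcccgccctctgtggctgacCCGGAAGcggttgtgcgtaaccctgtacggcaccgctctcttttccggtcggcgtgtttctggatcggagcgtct
Eef1e1: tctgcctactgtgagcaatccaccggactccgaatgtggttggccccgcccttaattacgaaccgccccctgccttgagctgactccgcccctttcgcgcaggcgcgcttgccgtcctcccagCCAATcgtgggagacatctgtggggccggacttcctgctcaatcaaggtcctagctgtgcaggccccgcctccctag
Eif3f: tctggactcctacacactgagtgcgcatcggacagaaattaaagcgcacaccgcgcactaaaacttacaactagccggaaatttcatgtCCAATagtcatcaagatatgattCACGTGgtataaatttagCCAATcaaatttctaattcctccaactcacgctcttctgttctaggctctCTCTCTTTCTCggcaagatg
Eif4h: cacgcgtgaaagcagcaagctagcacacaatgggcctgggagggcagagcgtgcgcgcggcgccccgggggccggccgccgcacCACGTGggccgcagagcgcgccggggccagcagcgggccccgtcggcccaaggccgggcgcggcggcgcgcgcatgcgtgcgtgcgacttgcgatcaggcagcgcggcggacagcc
*Eif3f*, lower without *Rictor*, holds 2 CCAAT boxes, an E-box and an 11-base tract at its start. *Eif3m*, higher, holds an ETS motif alone in these 200 bases, *Eef1e1*, higher, a CCAAT box, and *Eif4h*, lower, an E-box.

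Windows of 300 bases, reaching from 250 bases before the start to 50 from it on, were given for 47 of the 58 genes and for 14452 of all genes, and the most upstream start of a gene was used. The E-box was in 10 of the 47 (21.3%) and in 9.04% of all windows, and the ETS motif in 14 (29.8%) against 13.8%. The CCAAT box was in 14 (29.8%) against 38.4%. The windows of all genes were not limited to bright genes, although most of the 58 are bright. By direction, the E-box was in 2 of 11 genes called higher, in 3 of 7 called lower (*Eef2*, *Eif3f* and *Eif4h*) and in 5 of 29 that did not pass. The ETS motif was in 4, 1 and 9 of these. The tract at the start was in 2 of the 47 (*Eif3f* and *Eif2s3x*) and in 2.36% of all windows, and it depends on the exact base annotated as the start. The consensus strings of NRF1 and YY1, searched without mismatches, were each in 1 of the 47, against 1.59% and 1.49%. These letter matches are descriptions and do not show binding.

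The eIF4 group, which binds the cap and unwinds mRNA, had 3 of 10 genes lower and 1 higher, with a median of -0.08. *Eif4g3*, a scaffold that joins the cap-binding protein to the ribosome, read 371 and 398 in *Rictor-/-* cells and 500 and 514 in WT cells. The arrays were far apart, with means of 385 ± 18.7 and 507 ± 9.85 (SD, n = 2 each) and a difference of -0.38 (SE 0.06, limma adjusted p = 0.000345). *Eif4h*, which stimulates the helicase eIF4A, read 1364 and 1326 against 1731 and 1711. It too was lower on both arrays, by means of 1345 ± 26.9 and 1721 ± 13.7 (SD, n = 2 each) and a difference of -0.35 (SE 0.04, adjusted p = 9.72e-05). The suffix of its probe set marks probes that can match other transcripts, and the 4 probe sets of *Eif4h* at or above the array median ran from -0.40 to 0.05.

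*Eif4g2*, a scaffold that lacks the site for the cap-binding protein and serves cap-independent initiation, read 3483 and 3278 against 4048 and 3918. Its arrays did not overlap and its difference was -0.24 (SE 0.04, limma adjusted p = 0.00166), but its 4 probe sets at or above the array median ran from -0.24 to 0.23, and without WT array 1 it did not pass (0.076). The mean of its probe sets did not pass either (limma adjusted p = 0.62). The suffix of the *Eif4g2* probe set used marks probes that can match other transcripts. *Eif4e3*, a relative of the cap-binding protein, was the only gene of the group called higher, with 121 and 121 against 89.8 and 103, a difference of 0.28 (adjusted p = 0.0251). This call was lost whichever array was left out (adjusted p = 0.0562 to 0.214).

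The brightest probe sets of the cap-binding protein and the main helicase did not pass. *Eif4e* read 584 and 724 against 630 and 613, with the *Rictor-/-* arrays on both sides of the WT arrays, and a difference of 0.06 (95% interval -0.11 to 0.23, limma adjusted p = 0.665). Without *Rictor-/-* array 1 its difference was 0.22 and passed (adjusted p = 0.0228), and without *Rictor-/-* array 2 it was -0.09. A dimmer probe set of *Eif4e* read 232 and 241 against 194 and 201, without overlap and with a difference of 0.24, and the other one above the array median differed by 0.12. The helicase gene *Eif4a1* read 2898 and 3247 against 2821 and 2907, a difference of 0.10 (95% interval -0.01 to 0.21, adjusted p = 0.232), which also passed without *Rictor-/-* array 1 (adjusted p = 0.0163). *Eif4a2*, *Eif4b*, *Eif4e2* and *Eif4a3* differed by -0.10, -0.08, -0.08 and 0.03, the last of them below the array median in both genotypes. The 5 probe sets of *Eif4e2* ran from -0.38 to 0.12. Values for *Eif4g1*, the main scaffold, and *Eif4e1b* were not analysed here.

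The eIF4E-binding proteins sequester the cap-binding protein until mTOR complex 1 phosphorylates them. *Eif4ebp1* read 74.5 and 74.4 against 76.2 and 75.7, a difference of -0.02 with a 95% interval of -0.20 to 0.15 (limma adjusted p = 0.892). *Eif4ebp2* read 677 and 633 against 830 and 746. Both *Rictor-/-* arrays were below both WT arrays, with a difference of -0.26 (SE 0.06, adjusted p = 0.00786) that was lost without WT array 1 (0.166), and its 4 probe sets at or above the array median were all lower, by -0.29 to -0.04. *Eif4enif1*, a binding protein that carries eIF4E into the nucleus and to P-bodies, read 377 and 369 against 439 and 420, a difference of -0.20 (SE 0.05, adjusted p = 0.0229). It did not pass without *Rictor-/-* array 2 (0.0783), WT array 1 (0.193) or WT array 2 (0.103). *Eif4ebp3* shared its probe set with another gene and has no value.

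**Figure D5:**
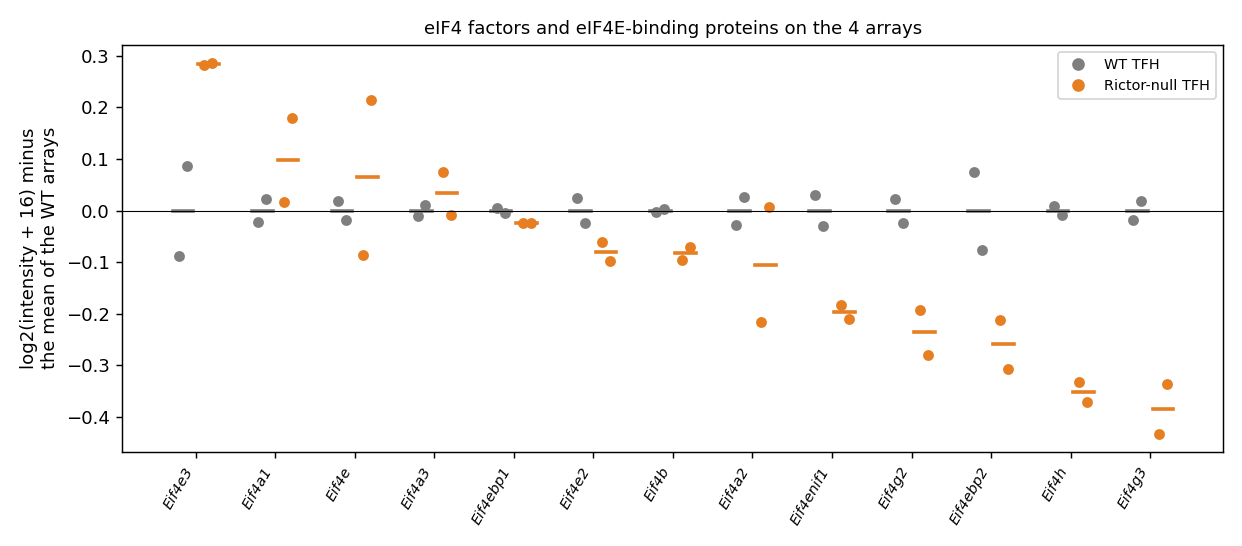
Each array's log2(intensity + 16) minus the mean of the WT arrays for the eIF4 genes and the eIF4E-binding proteins, with horizontal bars for group means. *Eif4g3* and *Eif4h* lie lowest, at -0.38 and -0.35, while the *Rictor-/-* arrays of *Eif4e* fall on both sides of 0.

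eIF5A, which helps ribosomes through difficult stretches and carries the modified amino acid hypusine, is encoded by a pair of genes. The abundant form *Eif5a* read 4377 and 4253 against 4663 and 4639. It was lower on both arrays by -0.11 but did not pass (limma adjusted p = 0.0669), although it passed under median centring (0.0349), quantile normalization (0.0462) and a filter on dim genes (0.027). The second form *Eif5a2* read 78.5 and 69.4 against 50.3 and 59.5, higher without overlap by 0.34 (SE 0.09, adjusted p = 0.0206). It did not pass without *Rictor-/-* array 1 (0.157), WT array 1 (0.205) or WT array 2 (0.0631), and its other probe set differed by 0.02. *Eif6*, which keeps the ribosomal subunits apart, differed by -0.01.

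Among 7 elongation genes 2 were higher, 1 was lower and 4 did not pass. *Eef1e1* read 689 and 620 in *Rictor-/-* cells and 454 and 457 in WT cells. The genotypes were well separated, with means of 654 ± 48.6 and 456 ± 2.23 (SD, n = 2 each) and a difference of 0.51 (SE 0.06, limma adjusted p = 6.51e-05). Its product, also known as AIMP3 or p18, is a scaffold of the complex that holds several tRNA synthetases and not itself an elongation factor. *Eef1d*, a subunit of the exchange factor that recharges eEF1A, read 2225 and 2045 against 1809 and 1864, a difference of 0.21 (adjusted p = 0.0069). It did not pass without WT array 1 (0.139) or WT array 2 (0.0941). Another subunit of that exchange factor, *Eef1b2*, differed by -0.07 (adjusted p = 0.308), and *Eef1g* shared its probe set with another gene.

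Neither of the main elongation factors gave a call that held on every set of arrays. *Eef2*, the translocase, read 3790 and 3766 against 4054 and 4174. Its difference of -0.12 (SE 0.04, limma adjusted p = 0.0412) did not survive leaving out any 1 array (adjusted p = 0.077 to 0.247), nor a fit with no trend in the spread (0.137) or adjustment over all probe sets (0.0634). *Eef1a1* read 10358 and 10970 against 11216 and 11343, both *Rictor-/-* arrays below both WT arrays, but its difference of -0.08 did not pass (95% interval -0.16 to 0.00084, adjusted p = 0.172). It passed without *Rictor-/-* array 2 (0.0438). *Eef1a2*, the form of muscle and neurons, and *Eefsec*, the selenocysteine factor, differed by -0.06 and 0.06.

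Of 5 genes for enzymes that modify elongation factors, 2 were higher and both act on eEF1A. *Eef1akmt1*, a lysine methyltransferase, read 444 and 412 against 298 and 309. The arrays were well apart, with means of 428 ± 22.0 and 303 ± 7.74 (SD, n = 2 each), a difference of 0.47 (SE 0.06, limma adjusted p = 0.000104), and its 4 probe sets were higher by 0.15 to 0.47. *Eef1akmt2*, a second methyltransferase of eEF1A, read 360 and 336 against 246 and 254, without overlap, a difference of 0.45 (SE 0.06, adjusted p = 0.000183). The kinase of eEF2, *Eef2k*, read 31.4 and 24.8 against 26.9 and 30.0, overlapping, with a difference of -0.01 (95% interval -0.21 to 0.18, adjusted p = 0.947). *Eef2kmt* and *Eef1aknmt* differed by 0.02 and -0.03, the latter below the array median in both genotypes.

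Other proteins of cytoplasmic translation, listed by name, also moved in both directions. Over all genes 12.5% were called higher and 7.19% lower. Among genes with a mean intensity of at least 100 the shares were 25.3% and 16.8%. Of the 32 other proteins measured, 9 were higher, 7 were lower and 16 did not pass, with a median of 0.03. Without *Rictor-/-* array 1 the counts were 3 higher and 5 lower, without *Rictor-/-* array 2 they were 6 and 4, and without either WT array they were 2 and 3. *Mcts1*, whose product works with that of *Denr* in recycling and reinitiation much as the single protein of *Eif2d* does, read 1708 and 1609 against 1242 and 1214. It was higher on both arrays by 0.43 (SE 0.05, limma adjusted p = 4.38e-05), and *Denr* differed by 0.16 (adjusted p = 0.0411). *Rps6*, a ribosomal protein phosphorylated downstream of mTOR complex 1, was higher by 0.36 (adjusted p = 0.000377). *Pabpc1*, the poly(A)-binding protein that bridges the tail to the eIF4G scaffolds, read 5513 and 5719 against 7204 and 7160. It was lower on both arrays by -0.35 (SE 0.04, adjusted p = 3.56e-05). *Mknk2*, a kinase of eIF4E, differed by -0.31 (adjusted p = 0.000265), and the eIF2alpha phosphatase subunits *Ppp1r15b* and *Ppp1r15a* by -0.33 (adjusted p = 0.00055) and -0.21 (adjusted p = 0.0163). Among 9 genes for translation in mitochondria 2 were higher, *Mrrf* by 0.39 (adjusted p = 0.00335) and *Mtif3* by 0.35 (adjusted p = 0.00365), and none was lower. *Atf4*, *Denr* and *Ppp1r15a* were named after their values were seen.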

How the data were processed

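Groups were taken from the sample labels. The authors deposited intensities on a linear scale from 4 Affymetrix arrays; MAS5 and RMA appear in the submitters' processing notes, with neither role nor version. Medians of 20.0 to 20.4 show scaling before deposit. Of 45037 probe sets, 34945 have 1 gene symbol, 932 several and 9160 none in the platform annotation. Suffixes for probes that can match other transcripts also mark the probe sets used for *Eif2b2*, *Eif3c*, *Eif4ebp1* and *Eif5a*. Intensities were used as log2(intensity + 16), which understates changes of dim genes. The model (lmFit, then eBayes with trend; limma 3.58.1, R 4.3.3) was fitted over all 18193 genes, with Benjamini-Hochberg adjustment and a threshold of 0.05. The fit was tested on simulated data. Precision is limited by 2 arrays per genotype, and p-values measure the spread between pools.

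Genes with full statistics are the 10 largest rises and the falls (up to 10) among those that passed with groups apart, and members with textbook roles, whatever their result. Other members appear by role, and from other lists up to 6 genes with the smallest p. Members and lists were chosen with earlier results of these data known. The methods' one-tailed t-test was an alternative, with the tail taken in the direction in which each gene moved. Its p-values are therefore not on the same footing as those of limma, which cover both directions.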

Additional observations from a re-analysis of the deposited data

How the results depend on the processing

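With 2 arrays a genotype, single calls depend on single arrays, and each fit without 1 array also called fewer of all genes. Leaving out 1 array gave 7 to 17 of the 58 translation factor genes higher and 3 to 8 lower, beside 18 and 8 with all arrays, the fewest without a WT array. For the other translation proteins it gave 2 to 6 higher and 3 to 5 lower, beside 9 and 7. Averaging all probe sets of a gene gave 11 higher and 5 lower and kept 16 of the 26 calls. It called 2639 of all 18193 genes, beside 3591 with the brightest probe sets. Of the other translation proteins, 4 were higher after quantile normalization and 5 with adjustment over all probe sets. After Benjamini-Hochberg adjustment the methods' t-test called 0 higher and 0 lower of both sets, and only 6 of all 18193 genes. At an unadjusted p under 0.05 it gave 16 higher and 10 lower of the 58 and 11 and 8 of the other proteins. It called 5374 of all genes at that threshold. Counting only genes with a mean intensity of at least 100, an alternative chosen after seeing the data, gave 17 higher and 8 lower of the 58, and 6 and 7 of the other proteins. Counts of the 58 were 16 to 19 higher and 7 to 9 lower under the other settings. None of the 26 calls of the 58 reversed its direction under any of these settings. For the other proteins only the counts were recomputed. The cause of these shifts was not tested. Dim genes near the array median carry the least signal over background.

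Between arrays of the same number, deviations from the group means correlated at -0.03. Whether such arrays share a batch was not tested. With that number as a replicate block the counts were 18 and 8, and all 26 calls were kept.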
